A study of Ovis aries with 9 samples.

Results

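In the RNA of fetal sheep back muscle, 9 of 10 genes that mark tendon or cartilage were found among 22605 loci. The genes were TNMD, SCX, MKX, FMOD, COMP, KERA, ACAN, SOX9, CHAD and THBS4, matched by gene name, with the locus of highest mean kept where a name had several. They were chosen by their FPKM values, since earlier results of the same data had shown such genes high in a single library, D105 replicate 2. Their level in that library is therefore a description and not a finding. SCX was the gene without a locus of that name. The samples came from the longissimus dorsi, a long back muscle, of fetuses of the Chinese merino breed. Each of pregnancy day 85 (D85), day 105 (D105) and day 135 (D135) had 3 libraries. No genotype, treatment or diet differed between the days in the labels. The labels do not assign a sequencer model to each library, so a batch could not be tested. Nothing in the labels ties each library to a fetus of its own, so the p-values rest on a spread between libraries that may be technical.

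Tendon is built of parallel type I collagen fibrils made by tenocytes, and in a back muscle it continues into the aponeurosis and the connective tissue around the fibres. Scleraxis (SCX) and mohawk (MKX) are transcription factors of tendon cells in mouse, and tenomodulin (TNMD) is a membrane protein of differentiated tenocytes. Fibromodulin (FMOD) and keratocan (KERA) are small leucine-rich proteoglycans that bind collagen fibrils, and COMP and THBS4 are pentameric thrombospondins of tendon and cartilage matrix. Cartilage is set apart by type II collagen and aggrecan (ACAN), whose genes are targets of the transcription factor SOX9, and chondroadherin (CHAD) is a leucine-rich repeat protein of cartilage matrix.

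Levels are given in FPKM, fragments scaled by transcript length and by library, and the number of reads behind a value is unknown because no counts were available. Library totals ranged from 395797 to 489270 FPKM, and from 2767 to 3249 loci were listed at 0. Low values put the depth of the libraries at 0.993 to 1.2 times that of D85 replicate 1. The 11 myofibre markers found summed to between 8952 and 23069 FPKM in each library, as the labelled muscle would hold. Over the 9 libraries THBS4 had the highest mean of the members at 75.3 ± 26.3 FPKM (SD, n = 9). FMOD (36.2 ± 52.2), KERA (33.6 ± 45.2) and TNMD (19.9 ± 26.5) followed, with spreads wider than the gaps between them. MKX averaged 3.60 ± 2.14 FPKM, SOX9 1.60 ± 0.612, CHAD 1.14 ± 0.715, ACAN 0.684 ± 0.724 and COMP 0.634 ± 0.933.

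TNMD, the tenocyte membrane protein, was at 17.3, 21.0 and 6.56 FPKM in D85 replicates 1, 2 and 3, at 2.06, 85.2 and 3.05 FPKM in the D105 libraries and at 0.0364, 13.1 and 30.6 FPKM in the D135 libraries. Its level was highest in D105 replicate 2 and close to 0 in D135 replicate 1, and the 3 days overlapped. MKX, the mohawk homeobox factor, was at 3.80, 4.36 and 3.92 FPKM at D85, at 2.59, 8.45 and 2.77 FPKM at D105 and at 0.649, 2.17 and 3.72 FPKM at D135. The D85 libraries lay close together, while D105 replicate 2 was high and D135 replicate 1 low. A locus without the name SCX carries the gene identifier that the RefSeq gene table lists as SCX. That locus was at 2.40, 0.921 and 0.681 FPKM at D85, at 0.311, 0.321 and 0.966 FPKM at D105 and at 0.0626, 0.466 and 1.18 FPKM at D135. It was not high in D105 replicate 2, and it stayed outside the counts below because it was not found by name.

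FMOD, which binds type I collagen, was at 19.3, 14.8 and 5.45 FPKM in D85 replicates 1, 2 and 3, at 7.32, 164 and 10.1 FPKM at D105 and at 1.36, 35.3 and 68.4 FPKM at D135. KERA, its keratan sulfate-bearing relative, was at 20.1, 29.0 and 11.9 FPKM at D85, at 7.61, 149 and 9.19 FPKM at D105 and at 4.91, 24.5 and 46.3 FPKM at D135. Both genes had the same low library at each day, namely D85 replicate 3, D105 replicate 1 and D135 replicate 1. THBS4 was at 86.6, 93.5 and 46.6 FPKM at D85, at 64.4, 92.9 and 47.8 FPKM at D105 and at 46.7, 76.7 and 123 FPKM at D135. Its range was narrower than that of FMOD or KERA, and its highest library was D135 replicate 3. COMP, the other thrombospondin among the members, was at 0.432, 0.691 and 0.0609 FPKM at D85 and at 0.0197, 2.96 and 0.0208 FPKM at D105. At D135 COMP was listed at 0 in replicate 1 and was at 0.791 and 0.734 FPKM in replicates 2 and 3. Only D105 replicate 2 exceeded 1 FPKM for COMP, so it was not tested between days.

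ACAN, the large aggregating proteoglycan of cartilage, was at 0.593, 1.001 and 0.252 FPKM in D85 replicates 1, 2 and 3, at 0.237, 2.47 and 0.289 FPKM at D105 and at 0.150, 0.437 and 0.724 FPKM at D135. It stayed low in each library apart from D105 replicate 2 and was not tested between days. SOX9, the cartilage regulator, was at 1.67, 2.38 and 2.45 FPKM at D85, at 1.91, 1.62 and 1.68 FPKM at D105 and at 0.838, 0.731 and 1.12 FPKM at D135. The D105 replicate 2 value of SOX9 was the lowest of its day. CHAD was at 0.437, 0.484 and 0.523 FPKM at D85, at 0.664, 1.84 and 0.920 FPKM at D105 and at 1.26, 1.64 and 2.47 FPKM at D135. CHAD met the expression limit for testing (1 FPKM in 3 libraries) only through D135 and D105 replicate 2.

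**Figure D1:**
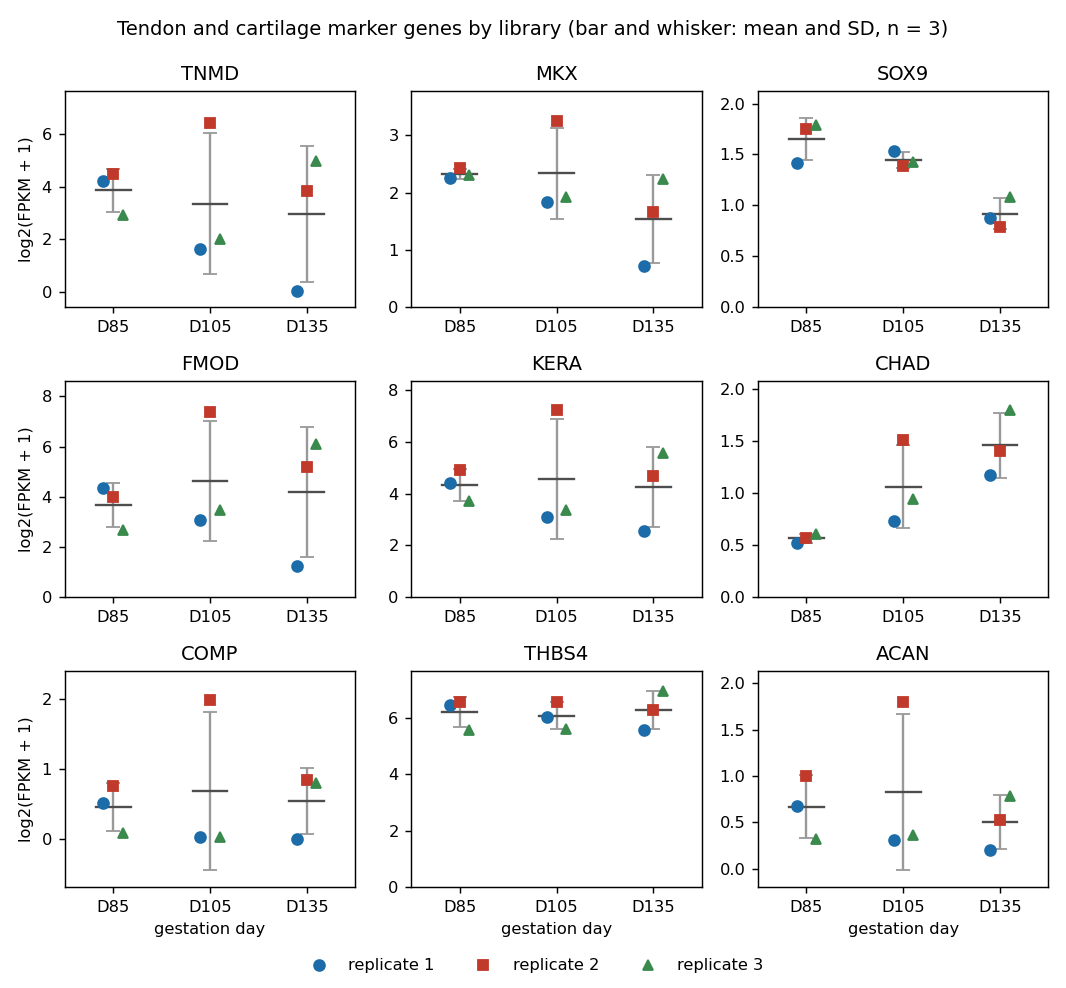
Level of each of the 9 members found, as log2(FPKM + 1), in the 3 libraries of each gestation day; points are libraries, with the mean and SD of the day (n = 3). D105 replicate 2 lies far above D105 replicates 1 and 3 for TNMD, FMOD and KERA (85.2, 164 and 149 FPKM), while SOX9 is lower at D135 and CHAD higher at D135 than at D85.

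All members but SOX9 stood higher in D105 replicate 2 than in the other D105 libraries. Against the mean of D105 replicates 1 and 3, TNMD was 33.3-fold, FMOD 18.8-fold and KERA 17.7-fold higher there in FPKM. On the log2(FPKM + 1) scale, which understates the change of low genes, these differences were 4.61, 4.10 and 4.0, and they ranked 11, 17 and 19 among 13086 loci. COMP had the largest fold of the members, 146-fold, over values of 0.0197 and 0.0208 FPKM, and stood 1.96 higher on the log2(FPKM + 1) scale and 4.67 higher with a pseudocount of 0.1. ACAN was 9.38-fold and MKX 3.15-fold higher. CHAD (2.32-fold) and THBS4 (1.66-fold) were less far apart, and SOX9 was at 0.901 of the mean of the other libraries. Of the 7 members tested, 4 were at least 1 higher on the log2 scale, beside 3.64% of all tested loci, and none was 1 lower, beside 2.72%. D105 replicate 2 was the highest of all 9 libraries for 6 of the 9 members, beside 16.1% of tested loci, and the highest D105 library for 8, beside 38.5%. The choice of the members fixes these counts. Set against the highest of all other libraries, TNMD was 2.79-fold, FMOD 2.39-fold and KERA 3.22-fold higher in D105 replicate 2. In bulk RNA, more cells of a type and more RNA per cell cannot be told apart.

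Other genes of the same tissues were read from lists chosen with results of these data known. Of 23 tested tendon partner genes, 10 were at least 1 higher on the log2 scale in D105 replicate 2 and none was as much lower. They included COL1A1, a chain of type I collagen, at 1889 FPKM in D105 replicate 2, against 403 and 419 FPKM in D105 replicates 1 and 3. COL1A2, the other chain, was at 2670 FPKM in D105 replicate 2, against 636 and 658 FPKM. COL3A1, the type III collagen shared with many fibroblasts, was at 1565 FPKM in D105 replicate 2, against 1155 and 1134 FPKM. The list had a median difference of 0.90 on the log2 scale, against 0.0149 over all tested loci.

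Of 10 tested cartilage partners, 4 were at least 1 higher in D105 replicate 2, with a median of 0.71. For 5 of 10 it was the highest D105 library. Among the rest, COL27A1 differed by 0.05 on the log2 scale and the locus that holds MIA by -0.36. COL2A1, the type II collagen gene, was at 67.8 FPKM in D105 replicate 2, against 1.07 and 1.88 FPKM in D105 replicates 1 and 3. COL11A1, a chain of the type XI collagen found with it, was at 105 FPKM in D105 replicate 2, against 11.7 and 13.9 FPKM. The locus of COL11A2, which joins a second gene name, was at 64.3 FPKM in D105 replicate 2, against 1.15 and 2.26 FPKM. The 21 cartilage partners found summed to 417 FPKM in D105 replicate 2, against 105 and 91.6 FPKM in D105 replicates 1 and 3. C1QTNF3 was the largest term of these sums, with a mean of 52.5 FPKM in D105 replicates 1 and 3. It was 2.70-fold higher in D105 replicate 2. Among the cartilage partners too low to test, COL9A3, a chain of type IX collagen, was at 3.32 FPKM in D105 replicate 2, against 0.454 and 0.504 FPKM. COL10A1, the collagen of hypertrophic cartilage, was at 1.02 FPKM in D105 replicate 2, against 0.201 and 0.341 FPKM. HAPLN1, the cartilage link protein, was at 0.124 FPKM in D105 replicate 2, against 0.0416 and 0.0126 FPKM, and COL9A2, another type IX chain, was at 0.210 FPKM, against 0.0704 and 0.0330 FPKM. Both were low but highest in that library, whereas MATN1, a cartilage matrilin, was at 0.0119 FPKM there, against 0.0507 and 0.0242 FPKM. These untested markers were picked out after their values were seen. Of the other untested partners, MATN4 was 4.62-fold, EPYC 2.10-fold, COL9A1 1.79-fold and SUSD5 1.11-fold higher in D105 replicate 2. For EPYC this was over a mean of 0.0149 FPKM. CYTL1 was at 0.731 of the mean of D105 replicates 1 and 3, and CLEC3A was listed at 0 in the D105 libraries. None of 5 tested bone markers was at least 1 higher in D105 replicate 2. SPARC, a matrix protein of bone and other connective tissue, was 0.95 higher, at 1304 FPKM in D105 replicate 2, against 677 and 672 FPKM in D105 replicates 1 and 3.

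Markers of other cell types in D105 replicate 2 were compared in the same way. Of 7 tested adipocyte genes, 4 were at least 1 higher, with a median of 2.22; the 11 found summed to 126 FPKM there, against 9.95 and 12.8 FPKM in D105 replicates 1 and 3. FABP4, the fatty acid carrier of fat cells, was at 45.6 FPKM in D105 replicate 2, against 0.785 and 0.897 FPKM. Fibroblast genes had a median of 0.62 and 1 of 11 was at least 1 higher, and leukocyte genes had 2 of 6 higher and 1 lower, with a median of 0.75. D105 replicate 2 was the highest D105 library for 11 of 11 fibroblast, 7 of 7 adipocyte and 1 of 11 myofibre genes. Myofibre genes had a median of -0.25, with MYOG, the myogenic factor, at least 1 lower, while endothelial genes had a median of -0.02. Whether adipocyte or leukocyte RNA takes part in the members' levels was not tested.

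**Figure D2:**
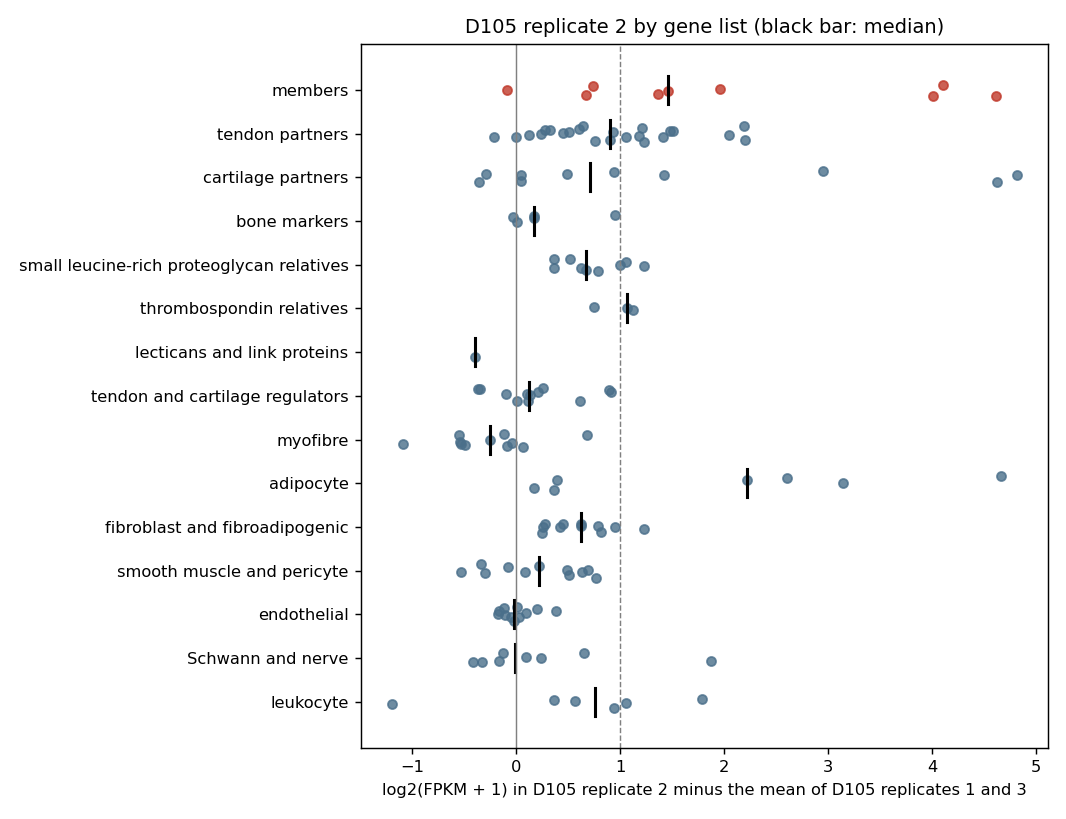
Difference of D105 replicate 2 from the mean of D105 replicates 1 and 3, in log2(FPKM + 1), for the 9 members (top) and for the tested genes of each list; a point is a gene, the black bar the median, and the dashed line a difference of 1. The members TNMD, FMOD and KERA lie at 4.0 to 4.61, beside 2 cartilage collagens and FABP4, while myofibre and endothelial genes centre near or below 0.

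The members differed between libraries of one day outside D105 as well, and these orders were picked out after the values were seen. At D135, replicate 1 was the lowest library for 8 of 9 members, beside 26.6% of tested loci, and SOX9 was the exception. Replicate 1 was also the lowest for 8 of 11 myofibre genes, 11 of 23 tested tendon partners and 4 of 11 fibroblast genes. Replicate 3 was the highest D135 library for 8 of 9 members, beside 33.9% of tested loci, and COMP was the exception. That order was not particular to the members. It held for 20 of 23 tested tendon partners, 10 of 11 fibroblast genes and 9 of 9 small leucine-rich proteoglycan relatives. Of the myofibre genes 2 of 11 had it, and of the adipocyte genes 0 of 7. At D85, replicate 3 was the lowest for 6 of 9 members, beside 43.1% of tested loci, with MKX, SOX9 and CHAD apart. The members summed to 150, 167 and 77.8 FPKM in D85 replicates 1, 2 and 3, to 86.8, 508 and 75.9 FPKM at D105 and to 55.9, 155 and 277 FPKM at D135. THBS4 alone was at 46.6 of the 77.8 FPKM in D85 replicate 3 and at 92.9 of the 508 FPKM in D105 replicate 2.

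COL2A1 followed the same libraries, at 11.3, 16.7 and 3.33 FPKM at D85 and at 0.968, 5.66 and 12.3 FPKM at D135. The adipocyte genes did not follow them at D135, where FABP4 was at 3.08, 34.2 and 0.665 FPKM in replicates 1, 2 and 3. TNMD was at 0.0364, 13.1 and 30.6 FPKM in those libraries, so its highest D135 library was the one where FABP4 was lowest. In ratio to KERA, TNMD was at 0.861, 0.726 and 0.549 at D85, at 0.270, 0.572 and 0.332 at D105 and at 0.00742, 0.534 and 0.660 at D135. The ratio of FMOD to KERA was between 0.456 and 0.960 at D85, between 0.962 and 1.10 at D105 and between 0.278 and 1.48 at D135. The proportions of these 3 genes thus differed between libraries.

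**Figure D3:**
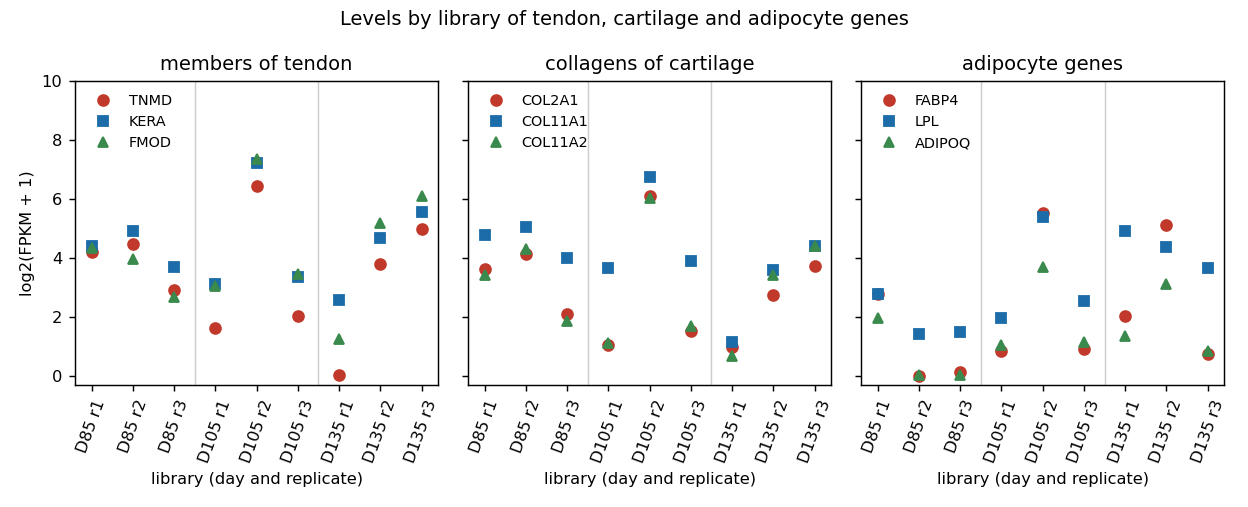
Levels, as log2(FPKM + 1), of TNMD, KERA and FMOD (left), of COL2A1, COL11A1 and COL11A2 (middle) and of FABP4, LPL and ADIPOQ (right) in each library, named by day and replicate (r). All 9 genes are highest in D105 replicate 2, while D135 replicate 3 holds high TNMD (30.6 FPKM) with low FABP4 (0.665 FPKM) and D135 replicate 2 holds high FABP4 (34.2 FPKM).

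Most members were correlated over the libraries. SOX9 stood apart from most of them throughout, and CHAD did so mainly while differences between days were left in. The highest r of SOX9 was with MKX, at 0.553 over 9 libraries and 0.686 without D105 replicate 2. Over the 36 pairs the median Pearson r of log2(FPKM + 1) was 0.708 and the median Spearman rho 0.608, over 9 libraries that share days and, in part, one high library. An r of 0.8 or more was found for 14 pairs and an r below 0 for 4. COMP and KERA had the highest r at 0.964, TNMD and KERA had 0.960, and FMOD and KERA had 0.946. SOX9 had a median r of -0.03 with the other members and CHAD of 0.372, and the pair SOX9 and CHAD had the lowest r at -0.71. Without D105 replicate 2 the median was 0.661 over 8 libraries and TNMD and KERA had 0.969. Without both D105 replicate 2 and D135 replicate 1, the libraries farthest from the median of the members' mean score, the median was 0.565 over 7 libraries. Over those libraries MKX also stood apart, with a median r of 0.342 with the other members, against 0.412 for CHAD. With the mean of each day subtracted, the median was 0.861 over 9 libraries, and 0.816 over 8 libraries without D105 replicate 2. CHAD then had a median r of 0.860 with the other members, 0.958 with MKX and 0.904 with TNMD, and a median of 0.673 without D105 replicate 2. Its median Spearman rho without that library was 0.464, against 0.726 over all pairs. SOX9 then had a median of -0.05, and 0.151 without D105 replicate 2. The pair SOX9 and CHAD had an r of 0.137 with day means subtracted, and 0.455 without D105 replicate 2. All of these are descriptions, since the members were chosen for a shared high library.

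**Figure D4:**
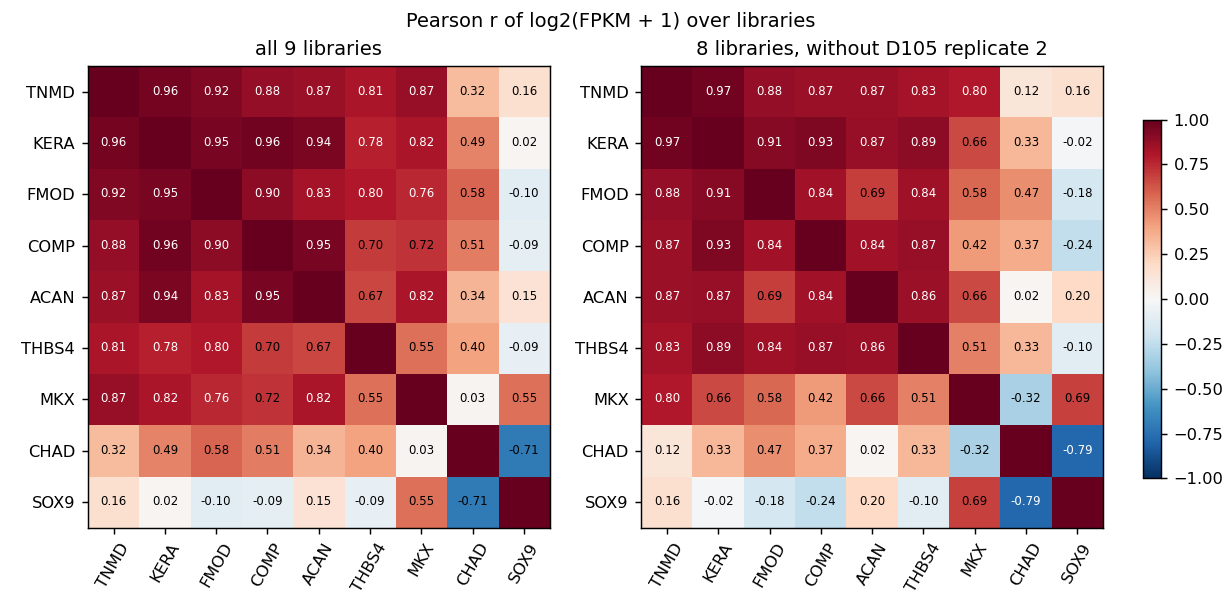
Pearson r of log2(FPKM + 1) for each pair of the 9 members, over all 9 libraries (left) and over the 8 libraries without D105 replicate 2 (right); red is positive and blue negative. TNMD, KERA, FMOD, COMP, ACAN and THBS4 form a block of high r in both, and SOX9 with CHAD is negative in both (-0.71 and -0.79), with differences between days left in.

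Outside the members, the tested loci whose pattern was most like the mean score of the members were ranked by Pearson r. The highest of 13086 loci over so few libraries reach a high r through the search itself, so the ranking is a description. Over 9 libraries the median r was 0.086 for all tested loci, 0.64 for tendon partners, 0.54 for fibroblast genes and -0.14 for myofibre genes. For cartilage partners it was 0.44. Without D105 replicate 2 the medians were -0.02 for all tested loci and -0.04 for myofibre genes. For tendon partners, fibroblast genes and cartilage partners they were then 0.32, 0.38 and 0.41. The most similar loci are given next. Over 9 libraries they were COL11A2 (0.972), ZNF185 (0.970), COL1A2 (0.957), COL2A1 (0.956), COL1A1 (0.955), AEBP1 (0.949), PMPCB (0.947) and LSAMP (0.944). Over the 8 libraries without D105 replicate 2 they were COL11A2 (0.971), ZNF185 (0.949), AEBP1 (0.942), CMC1 (0.927), PTX4 (0.926), COL2A1 (0.922), COL1A1 (0.902) and LSAMP (0.897). AEBP1, which encodes a collagen-binding matrix protein, was at 21.1 FPKM in D105 replicate 2, against 9.25 and 8.84 FPKM in D105 replicates 1 and 3.

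Changes between gestation days were tested on log2(FPKM + 1) with limma over 13086 loci, with p-values adjusted by the Benjamini-Hochberg method over all of them. Comparisons with D105 used its replicates 1 and 3 alone. The fit of D135 against D85 took its spread from all 9 libraries, D105 replicate 2 included. Of the 9 members, 7 could be tested. Between D135 and D85, CHAD rose and SOX9 fell, while TNMD, MKX, FMOD, KERA and THBS4 did not pass. That is 2 of 7 members, beside 46.6% of all tested loci (6.9% higher and 39.7% lower), so the share is not above the background. The median change of all loci was -0.35.

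CHAD averaged 1.79 ± 0.618 FPKM at D135 and 0.481 ± 0.0431 FPKM at D85 (SD, n = 3 each). Its log2 change was 0.89 ± 0.23 (SE), with an adjusted p of 0.0138 in limma. CHAD passed the expression limit only through libraries in which it is high, so the fit without that limit was read as well, and there the adjusted p was 0.0212. SOX9 averaged 0.897 ± 0.202 FPKM at D135 and 2.16 ± 0.431 FPKM at D85 (SD, n = 3 each). It fell by 0.73 on the log2 scale (SE 0.14, adjusted p = 0.00384 in limma), and the median of all loci lay at -0.35. With median-of-ratios scaling SOX9 changed by -0.47 (adjusted p = 0.0381 in limma), and with quantile normalization by -0.44, which was no longer called (adjusted p = 0.0555).

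The tendon members had wide errors between D135 and D85. TNMD averaged 14.6 ± 15.3 FPKM at D135 and 14.97 ± 7.51 FPKM at D85, with a log2 change of -0.91 ± 1.55 (SE, adjusted p = 0.659 in limma). FMOD averaged 35.0 ± 33.5 FPKM at D135 and 13.2 ± 7.08 FPKM at D85, with a log2 change of 0.51 ± 1.48 (SE, adjusted p = 0.798). KERA averaged 25.2 ± 20.7 FPKM at D135 and 20.3 ± 8.51 FPKM at D85, with a change of -0.07 ± 1.16 (SE, adjusted p = 0.967) that was positive under both other scalings. For MKX the change was -0.79 ± 0.46 (SE, adjusted p = 0.191) and for THBS4 0.07 ± 0.41 (SE, adjusted p = 0.898). The spread behind these errors took in D105 replicate 2, in which TNMD, FMOD and KERA are high and which belongs to neither day. Without that library, their SEs in the comparison of D105 with D85 were 1.33, 1.34 and 0.81. That comparison has fewer libraries, so its SEs cannot be set directly against those of D135 against D85. No change between D135 and D85 was called for TNMD, FMOD or KERA in 18 alternatives, including the fit without D105 replicate 2. Errors of the size printed here could hide changes of more than 1 on the log2 scale for TNMD, FMOD and KERA.

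Between D105 replicates 1 and 3 and D85, limma called none of the 7 members, and 22 of all loci (0.168%; 0.0764% higher and 0.0917% lower), while 1415 loci had an unadjusted p under 0.05. The lowest unadjusted p of a member was 0.168, for TNMD, whose log2 change was -2.04 ± 1.33 (SE, adjusted p = 0.624). Both D105 values of TNMD, 2.06 and 3.05 FPKM, lay below the D85 values of 6.56 to 21.0 FPKM. KERA had a change of -1.11 ± 0.81 (SE, adjusted p = 0.672), with D105 values of 7.61 and 9.19 FPKM below the D85 values of 11.9 to 29.0 FPKM. With D105 replicate 2 put back the changes were -0.50 for TNMD, 0.23 for KERA and 0.96 for FMOD, with none called.

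Between D135 and D105 replicates 1 and 3, SOX9 fell by 0.56 on the log2 scale (SE 0.16, adjusted p = 0.0351 in limma) and CHAD rose by 0.62 (SE 0.19, adjusted p = 0.0464), beside 33.0% of all loci called (4.23% higher and 28.8% lower). The SOX9 call held in 10 of 18 alternatives and was lost under both other scalings, and the CHAD call held in 5 of 18 and was lost without the expression limit (adjusted p = 0.0641). TNMD, FMOD and KERA had changes of 1.13, 0.92 and 1.04 and did not pass. Their sign and their calls turned on single libraries. With D105 replicate 2, in which these genes are high, put back, the changes were -0.41, -0.45 and -0.30 and none was called. Without D135 replicate 1, and still without D105 replicate 2, limma called all 3 higher at D135, with changes of 2.58 (adjusted p = 0.0312), 2.39 (adjusted p = 0.0354) and 1.89 (adjusted p = 0.0324). That fit called 3548 of 13086 loci, 467 of them higher. D135 replicate 1 had been picked out as the lowest D135 library of these genes, so leaving it out raises their change.

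**Figure D5:**
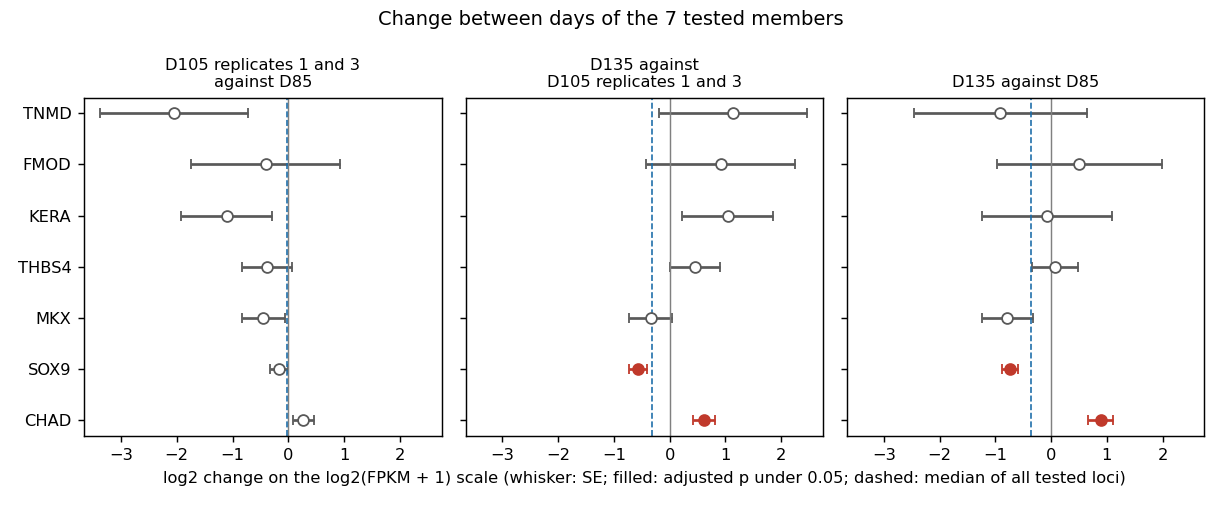
Log2 change with its SE, on the log2(FPKM + 1) scale, of the 7 members tested in each of 3 comparisons of gestation days; filled points have an adjusted p under 0.05 in limma and the dashed line is the median of all tested loci. SOX9 lies left of 0 and CHAD right of 0 in both comparisons of D135, with changes of -0.73 and 0.89 against D85, and the whiskers of TNMD and FMOD span more than 1 unit each way.

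Relatives and partners of the members were tested between D135 and D85 in the same fit, in which 39.7% of all tested loci fell and 6.9% rose. Of 23 tested tendon partners, 7 fell, 1 rose and 15 were not called (median -0.45, against -0.35 over all loci), a share of falls no higher than that of all loci. TNC, the matrix protein tenascin-C, averaged 2.54 ± 1.16 FPKM at D135 and 19.6 ± 4.86 FPKM at D85 and fell by 2.58 on the log2 scale (SE 0.30, adjusted p = 0.000532 in limma). COL12A1, a fibril-associated collagen gene, fell by 2.16 (SE 0.57, adjusted p = 0.0163), a call lost with median-of-ratios scaling (adjusted p = 0.0622). LOXL2, a collagen cross-linking enzyme, fell by 1.73 (SE 0.15, adjusted p = 0.000223). COL5A1, a chain of the type V collagen that starts fibrils, fell by 1.33 (SE 0.17, adjusted p = 0.000770), and TNC, LOXL2 and COL5A1 stayed called under both other scalings. COL1A1, at 466 ± 296 FPKM at D135 and 442 ± 117 FPKM at D85, had a change of -0.10 ± 0.68 (SE, adjusted p = 0.916), and its highest D135 library was replicate 3, as for FMOD and KERA.

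Of the 9 tested relatives of FMOD and KERA among the small leucine-rich proteoglycans, 2 rose, 2 fell and 5 were not called (median -0.50). PRELP averaged 4.17 ± 1.07 FPKM at D135 and 0.564 ± 0.183 FPKM at D85 and rose by 1.71 (SE 0.29, adjusted p = 0.00235 in limma). PODN, or podocan, averaged 6.49 ± 1.39 FPKM at D135 and 1.60 ± 0.0366 FPKM at D85 and rose by 1.51 (SE 0.16, adjusted p = 0.000410). ASPN, or asporin, averaged 10.4 ± 2.40 FPKM at D135 and 42.9 ± 5.53 FPKM at D85 and fell by 1.95 (SE 0.24, adjusted p = 0.000630). TSKU also fell, by 0.75 (SE 0.20, adjusted p = 0.0171), a call lost under both other scalings.

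Of the 3 thrombospondin relatives of COMP and THBS4, THBS3 fell by 1.54 (SE 0.23, adjusted p = 0.00142 in limma) and THBS2 by 1.49 (SE 0.39, adjusted p = 0.0161), the second not called under either other scaling. VCAN, or versican, was the only tested relative of ACAN among the lecticans and link proteins. It averaged 5.83 ± 0.922 FPKM at D135 and 66.5 ± 4.24 FPKM at D85 and fell by 3.31 (SE 0.14, adjusted p = 4.56e-05). In D105 replicate 2 VCAN was at 38.5 FPKM, against 50.2 and 51.5 FPKM in D105 replicates 1 and 3, so it was not high in the library where ACAN was highest.

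Among 10 tested cartilage partners, 2 fell between D135 and D85 and none rose (median -0.59), beside 39.7% lower among all loci. COL27A1, a fibrillar collagen gene, fell by 1.74 (SE 0.15, adjusted p = 0.000195 in limma), and the locus that holds MIA, which joins a second gene name, fell by 1.03 (SE 0.17, adjusted p = 0.00223). COL2A1, at 6.32 ± 5.71 FPKM at D135 and 10.5 ± 6.74 FPKM at D85, had a change of -0.81 ± 1.35 (SE, adjusted p = 0.648). Of 5 tested bone markers, COL24A1 fell by 2.22 (SE 0.15, adjusted p = 0.000126) and PTH1R by 0.68 (SE 0.11, adjusted p = 0.00241). Of 12 tested regulators of tendon and cartilage, 4 fell and none rose (median -0.43), again beside 39.7% lower among all loci. They were TGFB2, a growth factor that induces tendon genes in mouse, which fell by 1.07 (SE 0.15, adjusted p = 0.00111), and the transcription factors TGIF1, TCF12 and TCF3.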

How the data were processed

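The authors deposited 1 table of FPKM values whose 9 columns are the libraries, per the file headers. The submitters' processing notes name cutadapt, Bowtie2 and TopHat2. Their versions, the genome build, and how transcripts were assembled and counted: not given in the sources used here. Members and lists were chosen with earlier results of these data known. Names came from the table and, for 494 loci, from the RefSeq gene table (ARS-UI_Ramb_v3.0), used for names alone. Tests ran on log2(FPKM + 1) over the 13086 loci that reached 1 FPKM in 3 or more libraries, in limma 3.58.1 (R 4.3.3; eBayes with a trend, two-sided, no block); a call is a Benjamini-Hochberg adjusted p under 0.05. D135 against D85 used all 9 libraries; comparisons with D105 used 8, without D105 replicate 2. The method was tested on simulated data.

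Besides the members, up to 4 genes of highest mean and up to 4 called genes of largest change per list could be named, and the 8 most similar loci; others named are said to be chosen after their values were seen. COL9A1, COL9A2, COL9A3, COL10A1, MATN1, MATN4, HAPLN1, EPYC, SUSD5, CYTL1, CLEC3A, MYOG and UCP1 lie outside that rule. COL9A1, MATN4, EPYC, SUSD5, CYTL1 and CLEC3A were added to complete the untested cartilage partners. Alternative analyses used another pseudocount, filter, scaling or variance model, other sets of libraries, a block for the replicate number, and the removal of single libraries. Sequences were not used here. Figures used matplotlib 3.10.9, pandas 2.3.3 and numpy 2.4.6 in Python 3.11.15.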

Additional observations from a re-analysis of the deposited data

How the results depend on the processing

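Depth in reads is unknown, so counting error is not given, and values listed at 0 are printed as such. With 3 libraries a day, an exact permutation test cannot give a p below 0.1. Scaling set the direction of the calls over all loci. For D135 against D85, 6097 loci were called (903 higher, 5194 lower). Median-of-ratios scaling called 3615 (1942 higher, 1673 lower) and quantile normalization 3542 (1599 higher, 1943 lower). For D135 against D105 replicates 1 and 3, 4317 were called (554 higher, 3763 lower), with 1830 (1055 higher, 775 lower) and 1749 (816 higher, 933 lower) under those scalings. With a replicate block this comparison called 2404 loci, and D105 replicates 1 and 3 against D85 called 8 in place of 22. Same-numbered libraries correlated at -0.07 to 0.06 after the day means were removed, and libraries of unlike number at -0.09 to 0.05. With 3 libraries a day, such correlations cannot show whether same-numbered libraries share a source or a run. D105 replicates 1 and 3 against D85 called 50 without a filter and 42 with only those days fitted. Leaving out 1 library gave 21 to 47 calls there (47 without D105 replicate 3) and 1385 to 4301 for D135 against D105 replicates 1 and 3 (1385 without D105 replicate 1).

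The median difference of the 9 members in D105 replicate 2 was 1.46, and 2.83 with a pseudocount of 0.1. The median correlation of 0.708 was 0.766 with a pseudocount of 0.1, 0.608 by Spearman's coefficient and 0.861 with day means subtracted. For the 7 tested members it was 0.553, and 0.502 with quantile normalization. Leaving out 1 library gave 0.661 (without D105 replicate 2) to 0.758 (without D135 replicate 3).

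With D105 replicate 2 put back into the tests, some uncalled changes turned sign. For D135 against D105 these were TNMD (-0.41), FMOD (-0.45) and KERA (-0.30), and for D105 against D85 FMOD (0.96), KERA (0.23) and MKX (0.0055). KERA between D135 and D85 was 0.37 with median-of-ratios scaling and 0.16 with quantile normalization. SOX9 in D105 replicate 2 was 0.053 above the mean of all 8 other libraries. Leaving out 1 library moved D135 against D85 between -1.93 and 0.54 for TNMD, -0.46 and 1.98 for FMOD, -0.72 and 0.78 for KERA and -0.27 and 0.42 for THBS4. For D135 against D105 replicates 1 and 3 the ranges were -0.69 to 0.073 for MKX and -0.053 to 2.39 for FMOD. The cause of these changes was not tested.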

Other observations

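UCP1, the uncoupling protein of brown fat, was picked out after its values were seen. It was at 6.20 FPKM in D135 replicate 2 and at most 0.0331 FPKM in each of the other 8 libraries, 6 of which listed it at 0. In the same library the adipocyte genes ADIPOQ, a hormone of fat cells, and FABP4 were at 7.61 and 34.2 FPKM. D105 replicate 2 held more of both, at 12.1 and 45.6 FPKM, with UCP1 listed at 0.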
